A study of Mus musculus with 6 samples.

Results

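The signals of 8 ABC transporter genes, pumps that export drugs and conjugates, were compared between small intestinal crypts of CSN8fl/fl and CSN8ΔIEC mice. ATP-binding cassette (ABC) exporters are membrane pumps that use ATP to move their cargo out of the cell. The genes are Abcc1, Abcc2, Abcc3, Abcc4, Abcc5, Abcb1a, Abcb1b and Abcg2, taken by their symbols in the annotation of the array, and all 8 were found among the 19505 genes measured. Each was read by 1 probe set, and each had a mean log2 signal of at least 5 over the 6 arrays, so none was lost to a filter on dim genes. CSN8 (gene Cops8) is subunit 8 of the COP9 signalosome, which takes the ubiquitin-like protein NEDD8 off cullin-RING ubiquitin ligases. The study asked whether its loss from the epithelium impairs the making of antimicrobial peptides. CSN8fl/fl mice carry the loxP-flanked gene and served as controls, and CSN8ΔIEC mice were taken, as the name of the genotype says, as mice with that gene deleted in intestinal epithelial cells. The sources used here do not name the promoter that drives the deletion. All mice had a C57bl/6 background. Each genotype had 3 samples, with female and 16 weeks in the labels of replicates 1 and 2, and male and 10 weeks in that of replicate 3. The labels speak of biological replicates without saying that each came from a separate animal. If some did not, p-values here stand on a spread between samples that may be technical.

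Drugs, dietary toxins and reactive metabolites that enter an epithelial cell are coupled to glutathione, glucuronic acid or sulfate, and the charged products then need a pump to leave. In enterocytes, P-glycoprotein (Abcb1a and Abcb1b in mice), Abcg2 and Abcc2 sit in the apical membrane and return their cargo to the gut lumen. Abcc1 and Abcc3 sit in the basolateral membrane and send theirs towards the blood. Abcc5 is usually placed there as well, while Abcc4 has been described on either side and is described here with the basolateral pumps. Several of these genes are known targets of NRF2, the transcription factor of the response to electrophiles, of the xenobiotic receptors PXR and CAR, or of the dioxin receptor AHR.

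Signals are log2 values on a scale that ran from 2.35 to 14.102 over all arrays, and they compare 1 gene between arrays, not different genes with each other. Arrays have no read depth, and their number limits the precision. Array medians differed by at most 0.0577, and correlations between arrays lay between 0.976 and 0.993. The array of CSN8fl/fl replicate 3 stood apart, with its highest correlation to any other at 0.986. Cops8 itself was at 8.26, 8.22 and 8.10 in CSN8fl/fl and at 7.68, 7.61 and 7.77 in CSN8ΔIEC (log2 difference −0.50 ± 0.11 SE, adjusted p = 0.0865), which did not pass the threshold. The sources used here do not say where its probes lie relative to the deleted part, so this is no full check of the genotype. As to the tissue, the 10 progenitor and stem cell genes and the 10 Paneth cell genes looked at were all above a mean log2 signal of 5, and so were the 17 enterocyte genes, so the RNA held transcripts of enterocytes as well as of crypt base cells.

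The promoters of Abcb1a and Abcb1b, whose signals ran together over the arrays, and of Abcc2 and 1 of the 2 starts of Abcc4, which held the recognition core of NRF2, are shown first, for comparison with the signals that follow. RefSeq promoter windows of build GRCm38.p6, from 250 bases before to 50 after the annotated start, were matched for 6 of the 8 genes, all but Abcc1 and Abcc3, and gave 9 windows because some genes have several starts. Each is written 5′ to 3′ along the gene. Capitals mark the antioxidant response element core TGACNNNGC, to which NRF2 binds, and the CCAAT box, each on either strand.
Abcb1a: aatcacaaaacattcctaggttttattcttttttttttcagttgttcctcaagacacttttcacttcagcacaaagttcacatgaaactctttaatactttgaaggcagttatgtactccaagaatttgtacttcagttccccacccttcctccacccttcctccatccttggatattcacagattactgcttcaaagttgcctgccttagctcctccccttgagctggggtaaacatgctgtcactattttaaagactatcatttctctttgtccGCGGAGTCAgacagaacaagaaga
Abcb1b: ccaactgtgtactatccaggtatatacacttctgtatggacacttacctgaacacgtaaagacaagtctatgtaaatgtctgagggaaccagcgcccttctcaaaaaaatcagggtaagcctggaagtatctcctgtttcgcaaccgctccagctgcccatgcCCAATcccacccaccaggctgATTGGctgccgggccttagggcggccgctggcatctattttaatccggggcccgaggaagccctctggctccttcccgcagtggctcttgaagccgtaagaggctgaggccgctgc
Abcc4: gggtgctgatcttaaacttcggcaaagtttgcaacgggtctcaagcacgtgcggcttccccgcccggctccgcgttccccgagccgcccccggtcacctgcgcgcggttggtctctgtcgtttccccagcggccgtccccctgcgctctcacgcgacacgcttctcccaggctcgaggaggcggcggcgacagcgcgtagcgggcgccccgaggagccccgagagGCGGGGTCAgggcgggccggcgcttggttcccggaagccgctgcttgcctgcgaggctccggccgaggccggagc
Abcc2: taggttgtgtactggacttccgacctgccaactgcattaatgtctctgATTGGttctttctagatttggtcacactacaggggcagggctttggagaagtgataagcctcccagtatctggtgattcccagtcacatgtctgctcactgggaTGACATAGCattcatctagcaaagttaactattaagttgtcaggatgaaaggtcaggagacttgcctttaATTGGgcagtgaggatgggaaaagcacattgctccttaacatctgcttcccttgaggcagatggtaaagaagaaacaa
They lie at chr5:8566841-8567140 (plus strand), chr5:8797897-8798196 (plus strand), chr14:118706170-118706469 (minus strand) and chr19:43782058-43782357 (plus strand). The antioxidant response element core occurred in 12.4% of the 32851 windows in the RefSeq table. Among the exporters it occurred in the window of Abcb1a, where its first base lay 27 bases after the start on the reverse strand, in that of Abcc2, at position −98 from the start, and in both windows of Abcc4. The Abcc5 and Abcb1b windows and the 3 of Abcg2 held no such match. The CCAAT box, found in 37.4% of all windows, occurred at 2 places each in the windows of Abcb1b and Abcc2 and in none of Abcb1a. The AHR core GCGTG, in 32.4% of all windows, was matched in the Abcc4 window printed and in 1 window of Abcg2. A match describes the letters of the window and shows no binding.

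Of the 8 exporters, 2 rose and 0 fell in CSN8ΔIEC crypts, both of the ABCC family. The 2 were Abcc3 and Abcc1, and their signals were about 2.19-fold and 1.84-fold higher there than in CSN8fl/fl. Over the whole array 0.374% of genes rose, 0.702% fell and 1.08% changed in either direction. Abcc4 and Abcc5 had higher signals in each CSN8ΔIEC array than in each control array, but neither passed the threshold. In no apical pump were the genotypes separated, and the median difference was 0.12 over the 4 apical pumps and 0.71 over the 4 basolateral ones, against 0.27 over all 8 and −0.011 over all genes. This grouping by side is textbook background, applied with the values known, and the difference between the sides was not tested.

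**Figure D1:**
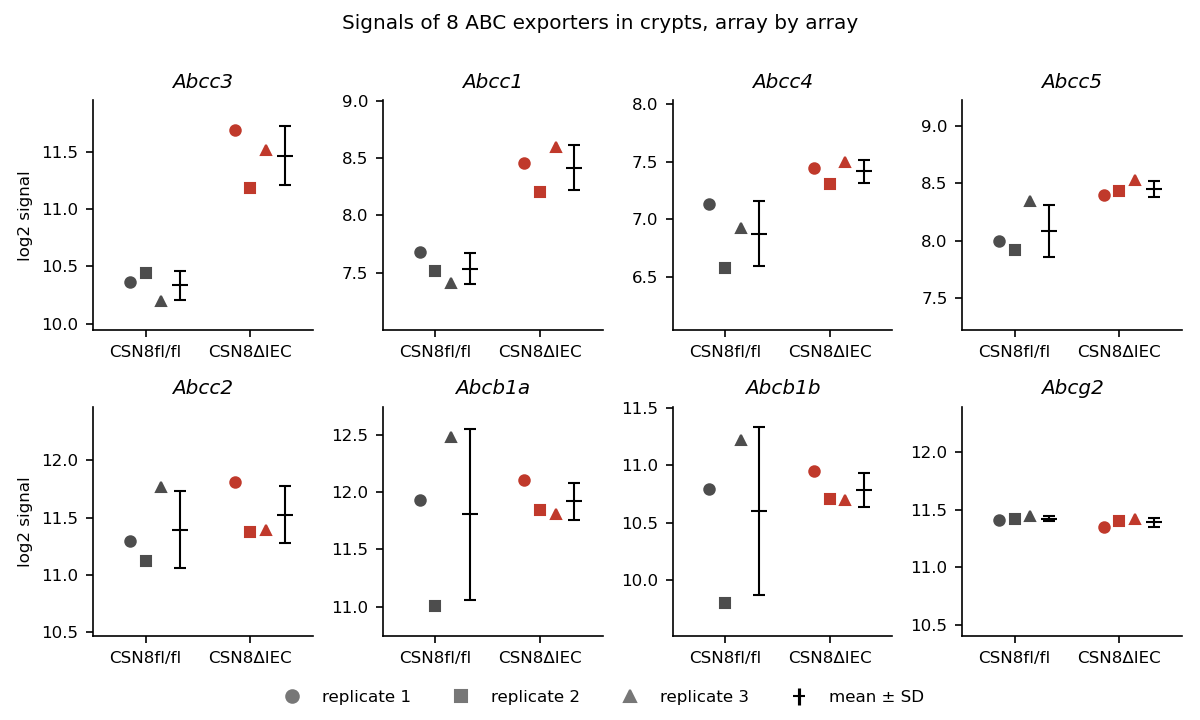
Log2 signal (vertical axis, 2 log2 units in every panel) of each exporter in the 3 CSN8fl/fl and 3 CSN8ΔIEC arrays, with the mean and SD of each genotype beside the points. In the upper row, Abcc3, Abcc1, Abcc4 and Abcc5, the genotypes do not overlap; in the lower row, Abcc2, Abcb1a, Abcb1b and Abcg2, they do.

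Abcc3 encodes MRP3, a basolateral pump that prefers glucuronides and also carries bile salts. Its log2 signal was 10.36, 10.44 and 10.20 in the controls, in the order of the replicates, and 11.69, 11.19 and 11.52 in CSN8ΔIEC. The lowest CSN8ΔIEC array lay 0.74 above the highest control. The mean went from 10.34 ± 0.12 to 11.47 ± 0.26 (SD, n = 3 each), a difference of 1.13 ± 0.15 SE with a 95% interval of 0.78 to 1.48 (limma, adjusted p = 0.0148). Among all 19505 genes it had the 55th highest difference. Without CSN8ΔIEC replicate 1 the difference was 1.02 and without CSN8ΔIEC replicate 3 it was 1.10, and in neither case did it pass (adjusted p = 0.0717 and 0.0545; over all alternatives 0.00525 to 0.0717).

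Abcc1 encodes MRP1, which exports glutathione conjugates, leukotriene C and glutathione disulfide. Control arrays gave 7.68, 7.52 and 7.41, and CSN8ΔIEC arrays 8.46, 8.20 and 8.59. Again the genotypes were separate, here by 0.52. The mean rose from 7.54 ± 0.13 to 8.42 ± 0.20, a difference of 0.88 ± 0.14 SE with a 95% interval of 0.56 to 1.20 (adjusted p = 0.0261). The direction was the same without any 1 array, with differences from 0.79 to 0.99. The call was lost without CSN8fl/fl replicate 2 (0.87, adjusted p = 0.0866), CSN8fl/fl replicate 3 (0.82, adjusted p = 0.0665), CSN8ΔIEC replicate 1 (0.86, adjusted p = 0.127) or CSN8ΔIEC replicate 3 (0.79, adjusted p = 0.108; over all alternatives 0.0162 to 0.127). So the count of 2 exporters that rose was 1, Abcc3 alone, without either of those control arrays and 0 without CSN8ΔIEC replicate 1 or 3. Genes called over the whole array, 210 with all arrays, were 109 and 151 without CSN8fl/fl replicate 2 and 3. They were 41 and 114 without CSN8ΔIEC replicate 1 and 3.

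Abcc4 encodes MRP4, a pump for cyclic nucleotides, prostaglandins and sulfated steroids. It was at 7.13, 6.57 and 6.92 in CSN8fl/fl and at 7.45, 7.31 and 7.496 in CSN8ΔIEC, which is a gap of 0.17 between the genotypes. The difference was 0.54 ± 0.16 SE, or 1.45-fold with a 95% interval of 1.14 to 1.86, and did not pass over all genes (adjusted p = 0.159; over all alternatives 0.0927 to 0.41). Abcc5 encodes MRP5, which carries cyclic nucleotides and nucleotide analogues. Its signals of 7.998, 7.92 and 8.35 in controls and 8.40, 8.43 and 8.53 in CSN8ΔIEC were separated by only 0.049, since the control labelled male reached nearly the level of the CSN8ΔIEC arrays. Its difference of 0.37 ± 0.14 SE did not pass (adjusted p = 0.275), and ranged from 0.28 to 0.49 when each array was left out in turn. Counting Abcc1 and Abcc3, 4 of the 8 exporters had all CSN8ΔIEC values above all control values, where 10.7% of all genes did. None had them all below, where 11.7% of all genes did, and 22.4% of genes were separated in either direction. At an unadjusted p under 0.05 there were these same 4 exporters, and 15.0% of all genes. The count of exporters separated in either direction was 3 after quantile normalisation, and 4 or 5 when 1 array was left out. The shares over all genes given above hold for the main setting with all arrays and were not counted in these settings. With fewer arrays, groups separate more easily, so the counts with 1 array left out cannot be set against those shares.

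Abcc2 encodes MRP2, the apical pump for glutathione and glucuronide conjugates, and so shares much of its cargo with Abcc1 and Abcc3. Its signal did not follow theirs. Controls gave 11.29, 11.12 and 11.77 and CSN8ΔIEC arrays 11.81, 11.37 and 11.39, so that the highest control lay above 2 of the 3 CSN8ΔIEC arrays. The difference was 0.13 ± 0.19 SE, with a 95% interval of −0.31 to 0.57 (adjusted p = 0.792). That interval holds both no difference and one of the size seen for Abcc4.

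Abcg2, the breast cancer resistance protein, exports sulfates, urate and many plant compounds, and it was the steadiest of the exporters. All 6 arrays lay between 11.35 and 11.45. The control mean was 11.42 ± 0.021 and the CSN8ΔIEC mean 11.39 ± 0.037, a difference of −0.033 ± 0.11 SE, where the SE draws on the spread of all genes (adjusted p = 0.912). On the fold scale the 95% interval ran from 0.827 to 1.16, which lies below the whole interval of Abcc3, 1.72 to 2.78, and below that of Abcc1, 1.48 to 2.297.

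Abcb1a and Abcb1b encode the mouse forms of P-glycoprotein, a pump for many bulky drugs. Abcb1a was at 11.93, 11.00 and 12.48 in CSN8fl/fl and at 12.11, 11.84 and 11.81 in CSN8ΔIEC. Abcb1b was at 10.79, 9.80 and 11.22 in CSN8fl/fl and at 10.96, 10.70 and 10.70 in CSN8ΔIEC. In both genes CSN8fl/fl replicate 2 was the lowest and CSN8fl/fl replicate 3 the highest of all arrays, and the CSN8ΔIEC arrays lay between them. The SD was 0.75 and 0.73 in controls against 0.16 and 0.15 in CSN8ΔIEC. Genotype differences were 0.11 ± 0.32 SE for Abcb1a (adjusted p = 0.893) and 0.18 ± 0.31 SE for Abcb1b (adjusted p = 0.82). They turned to −0.29 and −0.22 without CSN8fl/fl replicate 2, and were 0.45 and 0.49 without CSN8fl/fl replicate 3. With 95% intervals of −0.60 to 0.83 and −0.52 to 0.88, these 3 arrays a genotype could not show a change of the size of Abcc4's.

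**Figure D2:**
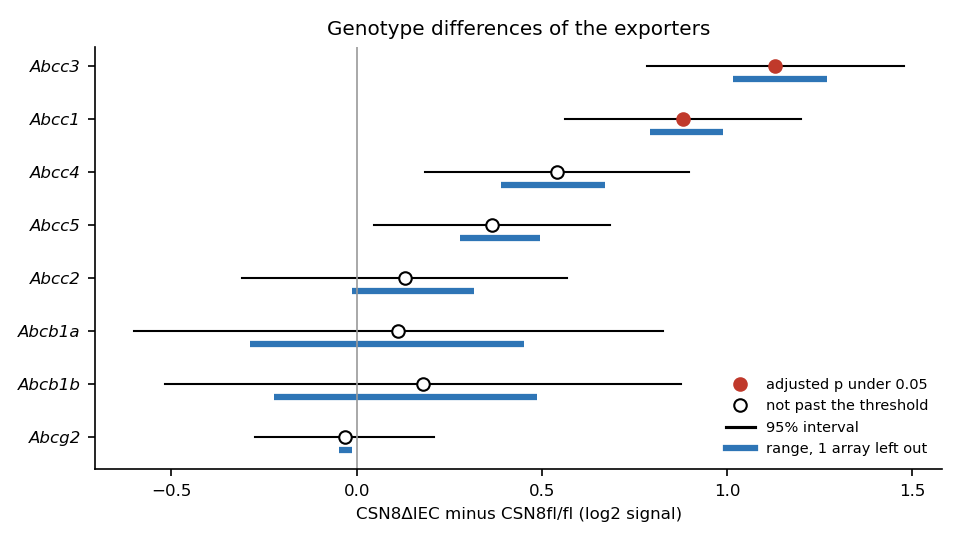
CSN8ΔIEC minus CSN8fl/fl in log2 signal (horizontal axis) for each exporter, with its 95% interval in black and, in blue, the range of the difference when each of the 6 arrays was left out in turn. Filled points, Abcc3 at 1.13 and Abcc1 at 0.88, passed an adjusted p of 0.05; the blue ranges of Abcc2, Abcb1a and Abcb1b cross 0.

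Across the 6 arrays the P-glycoprotein pair moved as 1, with a Pearson r of 0.994 between their signals and 0.997 between their deviations from the genotype means. The genes are close relatives, and signal shared between their probe sets was not separated. Abcc2 followed them less closely (r of the deviations 0.847 with Abcb1a and 0.813 with Abcb1b). For Abcc1 and Abcc3 r was 0.975 between the signals, which include the genotype difference both share, and 0.707 between the deviations. Abcc3 and Abcb1a had an r of −0.269 between the deviations. These coefficients describe 6 arrays shared by all genes and were not tested.

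**Figure D3:**
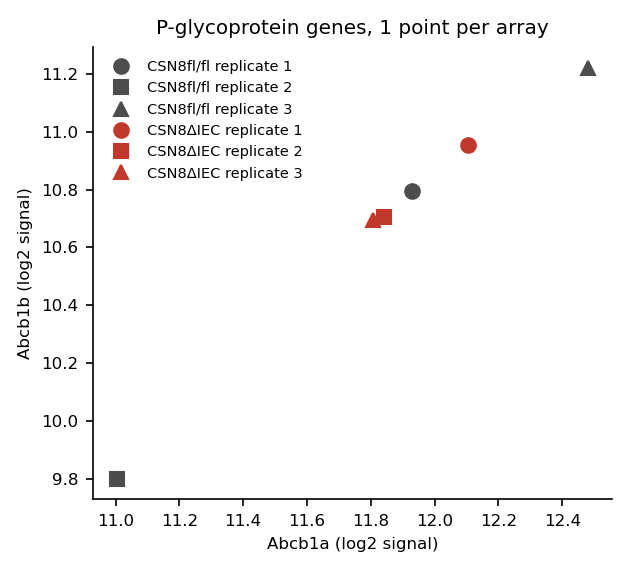
Log2 signal of Abcb1b (vertical axis) against that of Abcb1a (horizontal axis), 1 point per array, coloured by genotype and shaped by replicate number. The points lie along a line from CSN8fl/fl replicate 2 (11.00 and 9.80) to CSN8fl/fl replicate 3 (12.48 and 11.22), with the CSN8ΔIEC arrays in between.

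Labelled sex and age changed together and were balanced over the genotypes. In a model with genotype beside them, 0 of 8 exporters differed between the male of 10 weeks and the females of 16 weeks by limma (smallest adjusted p = 0.782, 0 at an unadjusted p under 0.05), where 0.0154% of all genes did. The genotype difference of Abcc3 was 1.04 among the labelled females and 1.32 between the labelled males, and that of Abcc1 0.73 and 1.18. For Abcc2 it was 0.38 and −0.38, for Abcb1a 0.51 and −0.67, and for Abcb1b 0.53 and −0.53. A test of the interaction called 0 of 8 exporters (limma, smallest adjusted p = 0.494, 0 at an unadjusted p under 0.05) and 0.0% of all genes. With 1 array labelled male in each genotype, the spread in that model came from the labelled females alone.

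Outside the 8 exporters, 40 other ABC genes were measured, of which 0 passed the threshold by limma and 11 had an unadjusted p under 0.05. Counts at an unadjusted p, here and in the lists that follow, stand against the 15.0% of all genes given above. Their median difference was −0.038, with 18 above 0 and 22 below. In 9 of the 18 sterol and lipid transporters all CSN8ΔIEC values lay below all control values, as they did in 11.7% of all genes. Of the 18, 7 had a mean log2 signal below 5, some of them among the 9. The gap between the genotypes in the 9 ran from only 0.023 to 0.155. Abcg5 and Abcg8, which together return plant sterols to the lumen, had differences of −0.54 ± 0.16 SE and −0.47 ± 0.14 SE (adjusted p = 0.163 and 0.17). Abcc10 and Cftr, relatives of the ABCC pumps, were at −0.24 and 0.18 (adjusted p = 0.389 and 0.595). Among the 13 intracellular members, Abcb6, a porphyrin transporter, differed by 0.51 and Tap1, the peptide transporter of antigen presentation, by 0.62 (adjusted p = 0.125 and 0.129).

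**Figure D4:**
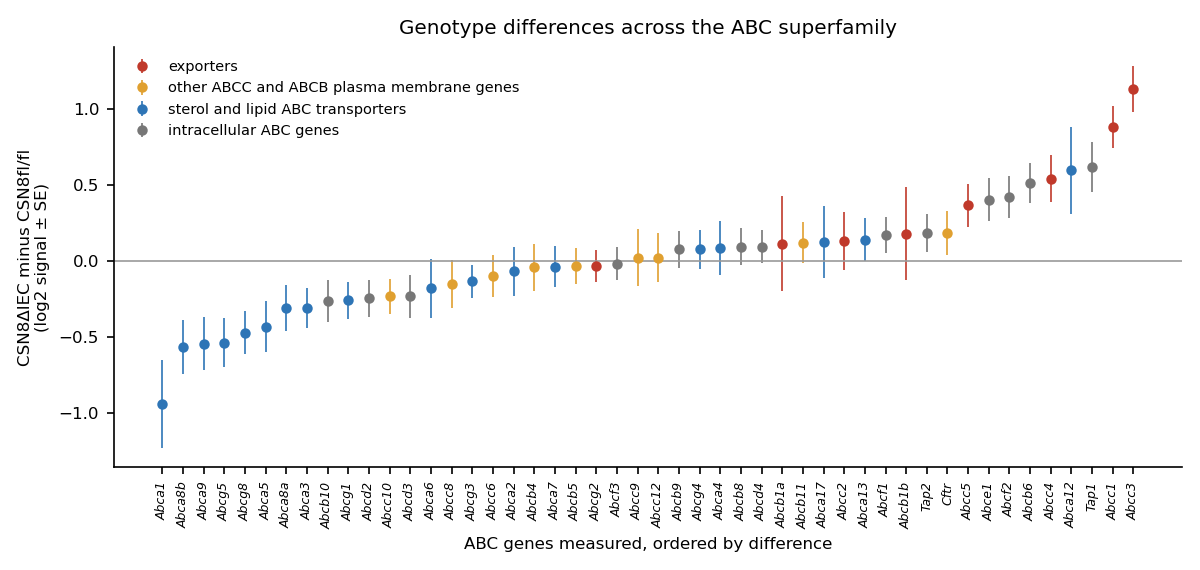
CSN8ΔIEC minus CSN8fl/fl in log2 signal (vertical axis, points with SE) for the 8 exporters and 40 other ABC genes, ordered from lowest to highest and coloured by list. Abcc3 and Abcc1 take the highest places at 1.13 and 0.88, and the sterol and lipid transporters, median −0.22, include the lowest, Abca1 at −0.94. The genotypes overlap in Abca1, which did not pass (SE 0.29, limma, adjusted p = 0.181).

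The enzymes that make the cargo of Abcc1 and Abcc3 were read beside them, from lists chosen for their roles with earlier results of these data known. With all arrays, counts past the threshold in these and the later lists stand against 0.374% of all genes that rose and 0.702% that fell. Counts with an array left out do not, since calls over the whole array moved as well. Those calls, 210 with all arrays, were 228, 109 and 151 without CSN8fl/fl replicate 1, 2 and 3. Without CSN8ΔIEC replicate 1, 2 and 3 they were 41, 122 and 114. Of 22 glutathione S-transferases, which attach glutathione, 8 rose and 0 fell, with a median difference of 0.50. Gstm2 rose 2.43-fold (log2 difference 1.28 ± 0.16 SE, adjusted p = 0.00996) and passed without any 1 array. These enzymes have close relatives, and signal shared between their probe sets was not separated. Leaving out CSN8fl/fl replicate 3 took the count of 8 to 5, and leaving out CSN8ΔIEC replicate 1, 2 or 3 took it to 1, 3 or 4.

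Of the 8 genes of glutathione synthesis and recycling, 1 rose and 0 fell, with a median of 0.44. The 1 was Gclc, the catalytic subunit of the rate-limiting enzyme, which went from 9.56, 9.57 and 9.69 to 11.27, 10.62 and 10.71, or 2.40-fold higher (adjusted p = 0.0166), and which did not pass without CSN8fl/fl replicate 2 (adjusted p = 0.0584; over all alternatives 0.00632 to 0.0584). Of 21 listed genes of glucuronidation, 10 were analysed, namely Ugt2 transferases, Ugdh and Ugp2. Of these 10, 5 rose and 0 fell, with a median of 0.71. They included Ugt2b35, a glucuronosyltransferase that rose 2.67-fold (adjusted p = 0.00675) and passed without any 1 array. The Ugt2b genes have close relatives too, and signal shared between their probe sets was not separated. Ugdh, which makes the activated glucuronic acid that all these transferases use, rose 1.94-fold (adjusted p = 0.0258), but of the fits to 5 arrays it passed in the one that lacked CSN8fl/fl replicate 3 and in no other (highest adjusted p 0.118). The count of 5 was 3 without CSN8fl/fl replicate 1 or 2 and 2 without CSN8ΔIEC replicate 1 or 2, and without the last of these arrays 1 gene of the list, Ugt2a3, fell. Of the 12 genes of sulfation, 0 passed by limma and 4 had an unadjusted p under 0.05; their median was −0.041, and Sult1a1 had the smallest adjusted p (difference 0.83, adjusted p = 0.104).

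Carriers that bring drugs and organic anions into the cell did not pass the threshold, with 0 of 17 by limma, 2 at an unadjusted p under 0.05 and a median of −0.026. The organic anion carrier Slco4a1 came nearest, with a difference of −1.09 ± 0.22 SE (adjusted p = 0.057), and it passed with trended robust variance or with dim genes left out (adjusted p over all alternatives 0.0421 to 0.217). Of 5 other solute exporters 0 passed, with 1 at an unadjusted p under 0.05; Slc51a, a subunit of the basolateral bile salt exporter, differed by −0.45 (adjusted p = 0.196). All 8 genes for proteins that anchor pumps at the cell surface had differences below 0, with a median of −0.37, but 0 passed and 4 had an unadjusted p under 0.05. Differences below 0 were also found in 10109 of all 19505 genes and in 13 of 17 enterocyte markers. Pdzk1, a scaffold protein of the apical membrane, was at 9.35, 9.46 and 9.57 in controls and at 8.36, 9.06 and 8.43 in CSN8ΔIEC (difference −0.84 ± 0.19 SE, adjusted p = 0.0826), and it passed without CSN8ΔIEC replicate 2, at −1.06 (adjusted p = 0.023; over all alternatives 0.023 to 0.289).

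Of 17 genes for transcription factors known to act on exporter genes and for their regulators, 0 passed by limma and 3 had an unadjusted p under 0.05. Ppara, the fatty acid receptor, differed by −0.55 ± 0.14 SE and Mafg, a small partner protein of NRF2, by 0.43 ± 0.15 SE (adjusted p = 0.108 and 0.239). The gene of NRF2, Nfe2l2, chosen after its values were seen, differed by 0.031 ± 0.14 SE (adjusted p = 0.936). Among 7 AHR target genes 1 rose, the quinone reductase Nqo1, which is a target of NRF2 as well, by 3.47-fold (adjusted p = 0.0194), and the median of the list was −0.039. Among 10 targets of PXR and CAR 1 rose, the retinal dehydrogenase Aldh1a1, by 2.51-fold (adjusted p = 0.0185), while the other 9 had differences below 0 and the median was −0.28. Both calls were lost when CSN8ΔIEC replicate 1 or 2 was left out (highest adjusted p 0.0971 for Nqo1 and 0.0875 for Aldh1a1), and without the latter array 1 of the PXR and CAR targets fell.

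**Figure D5:**
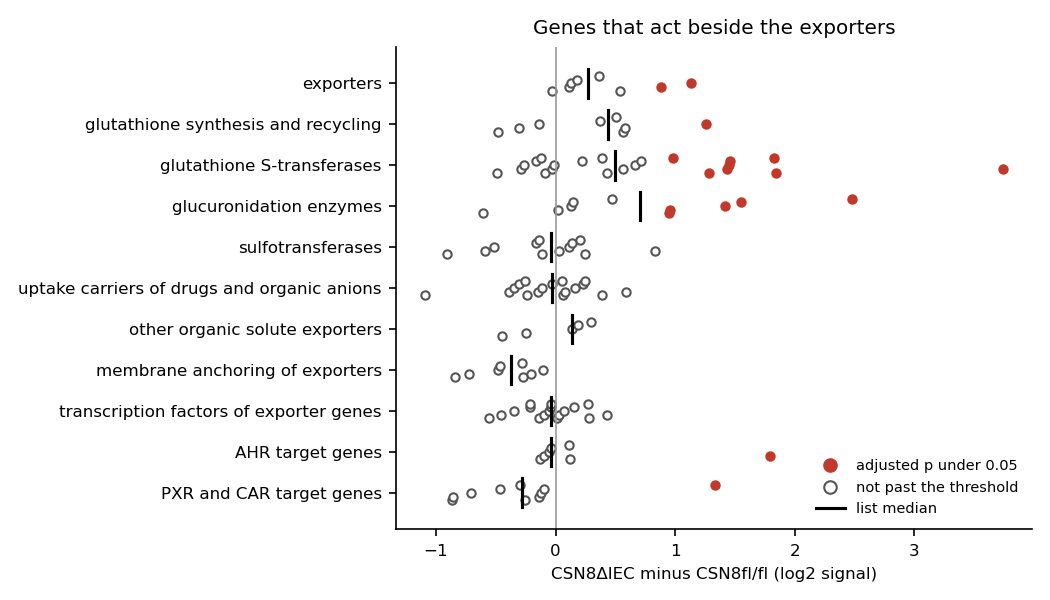
CSN8ΔIEC minus CSN8fl/fl in log2 signal (horizontal axis) for each gene of 11 lists, with filled points past an adjusted p of 0.05 and a black bar at the median of each list. Filled points lie to the right of 0 in the lists of exporters, glutathione synthesis, glutathione S-transferases, glucuronidation, AHR targets and PXR and CAR targets; the other 5 lists hold none.

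Genes were ranked by likeness without the exporters, predicted genes, genes with accession-like symbols, microRNAs and snoRNAs. Of the rest, those whose 6 signals ran most like those of Abcc3 were Il1rn, the interleukin 1 receptor antagonist (Pearson r = 0.996), Tlcd3a (0.993) and Pir, which encodes the nuclear protein pirin (0.992). Il1rn and Pir rose 4.64-fold and 3.34-fold (adjusted p = 0.00248 and 0.00401), both also without any 1 array, and Tlcd3a differed by 0.61 (adjusted p = 0.0715). Those most like Abcc1 were Sh3pxd2b (0.994), the glutamate carrier Slc1a3 (0.992) and Top1mt, the mitochondrial topoisomerase (0.989). Slc1a3 rose 3.52-fold (adjusted p = 0.0164), a call lost without CSN8ΔIEC replicate 1 or CSN8fl/fl replicate 2 or 3 (adjusted p up to 0.0804), while Sh3pxd2b and Top1mt differed by 0.26 and 0.43 (adjusted p = 0.308 and 0.145). By deviations from the genotype means, Cog3, Slc25a42 and Kcnip2 ran most like Abcc3 (r = 0.9997, 0.997 and 0.996) and Keg1, Zfp384 and Gpr143 most like Abcc1 (0.998, 0.997 and 0.997), and none of these 6 passed. With 19505 genes and 6 arrays such coefficients come high, and they are given as a description. The signals of Abcc3 and Abcc1 include their genotype difference. Genes chosen for running like those signals were therefore likely to differ by genotype, and their p-values are no separate support.

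Other cell types moved with genotype in the same arrays, and in bulk RNA fewer cells of a type cannot be told apart from less RNA per cell. Of 10 Paneth cell markers 8 fell, with list means of 12.1 to 12.4 in controls and 9.93 to 10.9 in CSN8ΔIEC. Of 9 tuft cell markers 4 fell, with list means of 7.73 to 9.24 in controls, the highest in CSN8fl/fl replicate 3, and 6.39 to 6.54 in CSN8ΔIEC. The counts of 8 and 4 were 2 and 0 without CSN8ΔIEC replicate 1, and the 4 were 1 without CSN8ΔIEC replicate 2 and 2 without CSN8ΔIEC replicate 3 or CSN8fl/fl replicate 2. Enterocyte markers, those of the cells that hold the apical pumps, gave 0 of 17 past the threshold, 4 at an unadjusted p under 0.05 and list means of 12.2 to 12.6 in controls and 11.9 to 12.4 in CSN8ΔIEC; without CSN8ΔIEC replicate 2, 1 of them, Alpi, fell. Progenitor and stem cell markers gave 0 of 10, 5 at an unadjusted p under 0.05 and list means of 8.95 to 9.67 in controls and 9.77 to 9.88 in CSN8ΔIEC; without CSN8fl/fl replicate 1, 1 of them, Ascl2, rose. T cell markers, 0 of 10 past the threshold and 3 at an unadjusted p under 0.05, had list means of 7.59 to 8.30 in controls and 7.36 to 7.71 in CSN8ΔIEC. Of the other lists, goblet cells had 3 of 8 that fell (1 without any array but CSN8fl/fl replicate 1, and 2 without that one), enteroendocrine cells 2 of 9 that rose and 1 that fell (1 rose without any array but CSN8ΔIEC replicate 2, and 0 fell without CSN8ΔIEC replicate 1 or 3). Among stromal, endothelial and muscle genes 1 of 11 rose, and 0 did without any 1 array. Myeloid and mast cell genes had 0 of 9 past the threshold (3 at an unadjusted p under 0.05). Among 9 genes of the proximal small intestine 1 fell (0 without CSN8ΔIEC replicate 1 or 2, with 1 that rose without the latter, and 2 without CSN8fl/fl replicate 1), and among 8 of the distal part 0 passed (2 at an unadjusted p under 0.05). The part of these shifts in the signals of Abcc1 and Abcc3 was not tested.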

How the data were processed

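Total RNA from EDTA-released crypts was labelled with the WT PLUS kit and hybridised to Affymetrix arrays, 1 per sample. The authors deposited log2 probe set signals; RMA and Partek 6.6 are the tools named per the submitters' processing notes. Neither their settings nor a genome build is given in the sources used here. Of 22206 probe sets, 19572 carried a single gene symbol, 0 carried several, and the other 2634 have no name here. The RefSeq gene table held the gene ID of all 19572. For 55 genes with several probe sets the brightest was used, which left 19505 genes.

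Genotypes were compared over all genes by limma's moderated linear model (limma 3.58.1, R 4.3.3, with 8.85 degrees of freedom after moderation), two-sided, with Benjamini-Hochberg adjustment over all genes and a threshold of 0.05. Differences are CSN8ΔIEC minus CSN8fl/fl in log2 signal ± SE. The script was tested on simulated data. Labelled sex and age, and their interaction with genotype, were added in further models. Alternatives were the replicate number as a block, labelled sex and age as a term, leaving out genes below a mean of 5, all probe sets or their mean, median centring, quantile normalisation, trended robust variance, array weights and each array left out.

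The 8 exporters and the 24 companion lists were chosen with earlier results of these data known; 30 listed genes were not analysed here. Text examples came from a rule: the exporters and Cops8; per list up to 6 genes past the threshold, or 2 by smallest p where none passed, of which only some are printed; and for Abcc3 and Abcc1 the 3 genes with the highest Pearson r of the signals and of the deviations from genotype means. Exporters, predicted genes, genes with accession-like symbols, microRNAs and snoRNAs were left out before the ranking by r. Ugt2a3, Nfe2l2 and Abca1 were named after their values were seen, outside that rule. Alpi and Ascl2 came under the rule and are printed because they passed in a fit with an array left out.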

Additional observations from a re-analysis of the deposited data

How the results depend on the processing

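The 9 alternatives that kept all arrays (other normalisation, filters, probe set rules, variance models, labelled sex and age, the block) left Abcc3 and Abcc1 past the threshold and the other 6 exporters below it, with no change of direction. The count of exporters whose genotypes did not overlap, 4 in the main setting, was 3 after quantile normalisation, where the share over all genes was not counted. Leaving out arrays moved more. The count of exporters that rose, 2 with all arrays, ranged from 0 to 2, and that of genes called over the whole array, 210 with all arrays, from 41 to 228, the lowest without CSN8ΔIEC replicate 1. Differences ranged from 1.02 to 1.27 for Abcc3, from 0.79 to 0.99 for Abcc1, from −0.013 to 0.32 for Abcc2, from −0.29 to 0.45 for Abcb1a and from −0.22 to 0.49 for Abcb1b. Fewer samples were fitted there; otherwise the cause was not tested. The genes most like Abcc3 or Abcc1 by deviations lay near 0: Cog3 ranged from −0.12 to 0.017, Slc25a42 from −0.12 to 0.031, Kcnip2 from −0.079 to 0.059, Zfp384 from −0.019 to 0.060 and Gpr143 from −0.18 to 0.21. Kcnip2 was at 0.016 with arrays centred on their median and 0.025 after quantile normalisation, and Gpr143 at −0.049 with array weights.

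With the replicate number as a block, 202 genes and 2 exporters were called, with adjusted p = 0.0277 for Abcc3 and 0.0483 for Abcc1. Under the block 1 goblet marker fell in place of 3, 1 enteroendocrine marker rose in place of 2, 0 stromal, endothelial or muscle genes rose in place of 1, and 1 myeloid or mast cell gene fell in place of 0; counts for the other lists stayed within 1.5 times. Deviations of same-numbered arrays correlated at 0.117, −0.024 and 0.038, and not every array correlated best with its own number, so the replicates were taken to share a number and no pairing.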

Other observations

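Abcb1a was looked at further after its values were seen. In the ranking by r described above, which leaves out the exporters, Mex3d, Hormad2 and Ifrd1 came first by deviations from the genotype means. Their Pearson r with Abcb1a was 0.999, 0.999 and 0.998 over 6 arrays (not tested), against 0.997 for Abcb1b. The signals of Abcb1a among controls ran from 11.00 to 12.48, with an SD of 0.75, where the SD of Abcc3 among controls was 0.12.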
